A study of Rattus norvegicus with 10 samples.

Results

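Genes of the cell cycle and of proliferation were followed across isolated pancreatic islets of rats 40 days old, measured on 10 Affymetrix expression arrays. The set was drawn up by name and holds 42 genes, from the D cyclins that open the cycle to the proteins that end mitosis. A gene was read only from probe sets annotated to exactly 1 symbol. This gave 40 of the 42 genes with 55 probe sets out of 31042, and Rrm2 and Tpx2 were not analysed here. Where a gene had several probe sets, which was so for 11 members, the brightest by its mean across the arrays stood for it, as for all 14217 genes measured.

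The islets came from 5 groups of 2 arrays each. DR+/+ rats and JB rats are of the BB (BioBreeding) family, a rat model of autoimmune diabetes. They resist the disease unless it is induced and do not carry the lyp mutation. JBlyp/lyp rats are BB rats prone to diabetes and homozygous for lyp, the lymphopenia mutation of Gimap5, which leaves rats with few T cells. F344 rats and F344lyp rats, F344 with lyp, were the healthy controls. All animals were 40 days old and were fasted. The protocol that gives them as male names DRlyp/lyp and does not name JB. DR+/+ and JBlyp/lyp animals were bred from DRlyp/+ parents, and how the JB line was derived is not given. The arrays of a group are labelled as biological replicates, with no word on whether each holds islets of 1 animal or of several, so p-values measure only the spread between these samples, which may be technical. Islets were freed with collagenase and purified on a density gradient, which leaves other cells of the pancreas in the preparation.

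As background, a cell enters the cycle when D cyclins with Cdk4 and Cdk6, and then E cyclins with Cdk2, inactivate the retinoblastoma proteins and free the E2F transcription factors, which turn on the genes of DNA replication. The inhibitors Cdkn1a, Cdkn1b and Cdkn2c hold these kinases back. Later, B-Myb and Foxm1 turn on the genes of G2 and mitosis, among them the cyclins A2, B1 and B2, the kinases Cdk1, Plk1 and the Aurora kinases, and the proteins of the spindle. In rodent beta cells cyclin D2 and Cdk4 are the main G1 pair, and beta cells of young rats still divide at a low rate. Endothelial, stellate, immune, duct and acinar cells in the preparation can divide as well.

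Values are log2 intensities, and a difference is a difference of group means on that scale with its standard error (SE). A probe set was called at an adjusted p under 0.05 (limma with Benjamini-Hochberg, over all 31042 probe sets of a comparison). Array pairs of a group correlated at 0.981 to 0.997. The DR+/+ arrays stood apart. The summed intensity of the 7 measured beta cell markers was 29451 to 30231 in DR+/+ and 47526 to 55127 in the other groups, that of the 8 markers of other endocrine cells 6068 to 6310 against 19928 to 32483, and that of the 11 endothelial markers 13897 to 14220 against 4891 to 7356. The difference between the 3′ and 5′ Gapdh control probe sets, which grows as RNA is broken, was 2.19 to 2.43 in the F344 and F344lyp arrays, 2.75 to 2.97 in JBlyp/lyp and 3.18 to 3.71 in DR+/+ and JB. The same difference for beta-actin was 2.57 and 2.86 in DR+/+, 4.17 and 3.4 in JB and 3.43 and 3.3 in JBlyp/lyp. It was 3.06 and 2.95 in F344 and 2.72 and 2.77 in F344lyp, so the controls ranked DR+/+ differently. The Gapdh difference was also tried as a covariate. It largely followed the groups, with a mean of 3.22 in BB and 2.29 in F344 and F344lyp. A fit with it therefore cannot separate RNA quality from group. In bulk samples such as these, fewer cells of a type and less RNA per cell cannot be told apart. The BB mean is therefore given with and without DR+/+.

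Promoters are shown first, as a description of the members, and no link between their elements and the differences below was tested. The table of RefSeq promoters (build GRCr8) holds 30 of the 42 members, and the 250 bases before each gene start were searched on both strands for 3 elements known from cell cycle genes. The first is the cell cycle genes homology region (CHR, letters TTTGAA or TTTAAA), bound by the complexes that time mitotic genes. The second is the CCAAT box, bound by NF-Y, and the third is an E2F element (letters TTCGCGC or TTGGCGC, which overlap each other where both strands match). Of the 15 members of G2, mitosis and the spindle in that table, 13 had a CHR match, 12 a CCAAT match and 11 both. Among all 27457 promoters the shares were 25.3%, 34.3% and 8.88%. An E2F match was found in 5 of 8 replication members, in 2 of the 15 mitotic members and in 3.08% of all promoters. A match describes the letters only.

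The 5 mitotic promoters below belong to genes with the highest signal in F344lyp islets, and Mcm6 is set beside them as a replication gene. Each is written 5′ to 3′ on the strand of its gene. Capitals mark the CHR, CCAAT and E2F letters on either strand, so that ATTGG is a CCAAT box, TTCAAA a CHR and GCGCGAA or GCGCCAA an E2F element read on the other strand. Cdc20 lies at chr5:137255800-137256049 on the minus strand, Ccnb2 at chr8:79981659-79981908 on the minus strand and Cdk1 at chr20:19265043-19265292 on the plus strand. Top2a lies at chr10:84473094-84473343 on the minus strand, Bub1 at chr3:135504922-135505171 on the minus strand and Mcm6 at chr13:42404353-42404602 on the minus strand.
Cdc20: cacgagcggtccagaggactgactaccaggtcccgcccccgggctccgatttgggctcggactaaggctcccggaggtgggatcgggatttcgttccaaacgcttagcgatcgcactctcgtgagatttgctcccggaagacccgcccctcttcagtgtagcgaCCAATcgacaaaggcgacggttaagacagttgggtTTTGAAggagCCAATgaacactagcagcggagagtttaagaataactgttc
Ccnb2: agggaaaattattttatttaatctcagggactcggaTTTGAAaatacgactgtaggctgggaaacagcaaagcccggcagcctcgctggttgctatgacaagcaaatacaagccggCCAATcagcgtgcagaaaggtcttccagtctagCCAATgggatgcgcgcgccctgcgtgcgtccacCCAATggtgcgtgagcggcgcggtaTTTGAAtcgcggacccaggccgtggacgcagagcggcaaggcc
Cdk1: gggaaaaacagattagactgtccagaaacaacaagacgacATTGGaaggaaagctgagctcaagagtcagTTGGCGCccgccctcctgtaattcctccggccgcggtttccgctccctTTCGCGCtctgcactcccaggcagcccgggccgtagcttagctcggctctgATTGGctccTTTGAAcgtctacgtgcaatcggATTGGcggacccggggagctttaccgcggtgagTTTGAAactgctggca
Top2a: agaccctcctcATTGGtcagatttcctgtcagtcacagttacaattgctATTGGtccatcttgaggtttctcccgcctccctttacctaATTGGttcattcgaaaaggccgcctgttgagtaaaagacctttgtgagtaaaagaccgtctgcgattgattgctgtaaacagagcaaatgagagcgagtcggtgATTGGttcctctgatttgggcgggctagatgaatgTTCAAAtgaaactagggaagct
Bub1: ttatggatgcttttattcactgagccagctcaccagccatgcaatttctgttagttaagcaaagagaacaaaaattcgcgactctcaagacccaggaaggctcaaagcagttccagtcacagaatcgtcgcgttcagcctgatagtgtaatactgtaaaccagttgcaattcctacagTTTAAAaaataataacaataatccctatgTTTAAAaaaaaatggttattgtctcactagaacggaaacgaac
Mcm6: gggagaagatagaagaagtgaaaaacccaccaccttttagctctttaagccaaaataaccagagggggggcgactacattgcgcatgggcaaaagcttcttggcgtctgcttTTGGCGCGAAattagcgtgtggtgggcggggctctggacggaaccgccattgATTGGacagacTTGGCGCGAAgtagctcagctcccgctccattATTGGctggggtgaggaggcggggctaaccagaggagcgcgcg
In Cdc20 the CHR starts 51 bases before the gene start with a CCAAT box on either side, at 86 and at 41 bases. In Ccnb2 there are 3 CCAAT boxes, at 134, 101 and 68 bases, between a CHR at 214 and another at 43 bases. Bub1 has a pair of CHR matches, at 72 and 43 bases, and no CCAAT box in this window. Mcm6 has no CHR there, a pair of CCAAT boxes, and overlapping E2F letters that start 138 and 75 bases before the gene start.

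The share of members called ran from 0 for lyp within JB to 47.5% in JBlyp/lyp against F344lyp, and the order of the comparisons depended on the fit. In JBlyp/lyp against F344lyp, 19 of 40 members (47.5%) were called, where 16% of all 14217 genes were. Of the members 17 fell and 2 rose, and over all genes 11.3% fell and 4.7% rose. The median difference was -0.52 over the members and -0.04 over all genes. For 28 members both JBlyp/lyp arrays lay below both F344lyp arrays, as for 32.3% of all genes, and for 5 they lay above, as for 22.6%. The count of 19 was 5 to 18 with 1 array left out and 7 in a fit of these groups alone. The same contrast without lyp, JB against F344, shares no array with it. There 5 members (12.5%) were called, where 13% of all genes were, and 4 fell (8.22% over all genes) and 1 rose (4.79%), at a median of -0.13. That count was 0 without either F344 array or with the Gapdh difference as a covariate, and 1 without JB replicate 2.

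In the mean of the BB groups against the mean of the F344 groups 18 members (45%) were called, where 37.9% of all genes were, and 15 fell (24.6% over all genes) and 3 rose (13.3%). With the group as a random block 3 stayed called, Ccnd3, Bub1 and Cdc20, and with the Gapdh covariate 0. DR+/+ against F344 called 12 members, where 40.1% of all genes were called, and 8 fell (23.8% over all genes) and 4 rose (16.3%). DR+/+ against JB called 11, where 34% were, and 4 fell (18.4% over all genes) and 7 rose (15.5%). The first of these counts was 7 without either F344 array, 0 with the Gapdh covariate and 20 in a fit of those groups alone, and the second was 6 without DR+/+ replicate 1, 7 without JB replicate 2 and 7 in a fit of those groups alone. Shares over all genes in these other fits are not given here. Within F344, lyp called 1 member, higher, where 1.9% of genes were called, 1.58% higher and 0.317% lower. Within JB it called 0, where 0.00703% were. The heat map of centred values shows both F344lyp columns above the other 8 in 9 of the 18 mitotic rows, as for 13% of all genes. It shows the DR+/+ columns lowest for Ccnd2 and Cdk4.

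**Figure D1:**
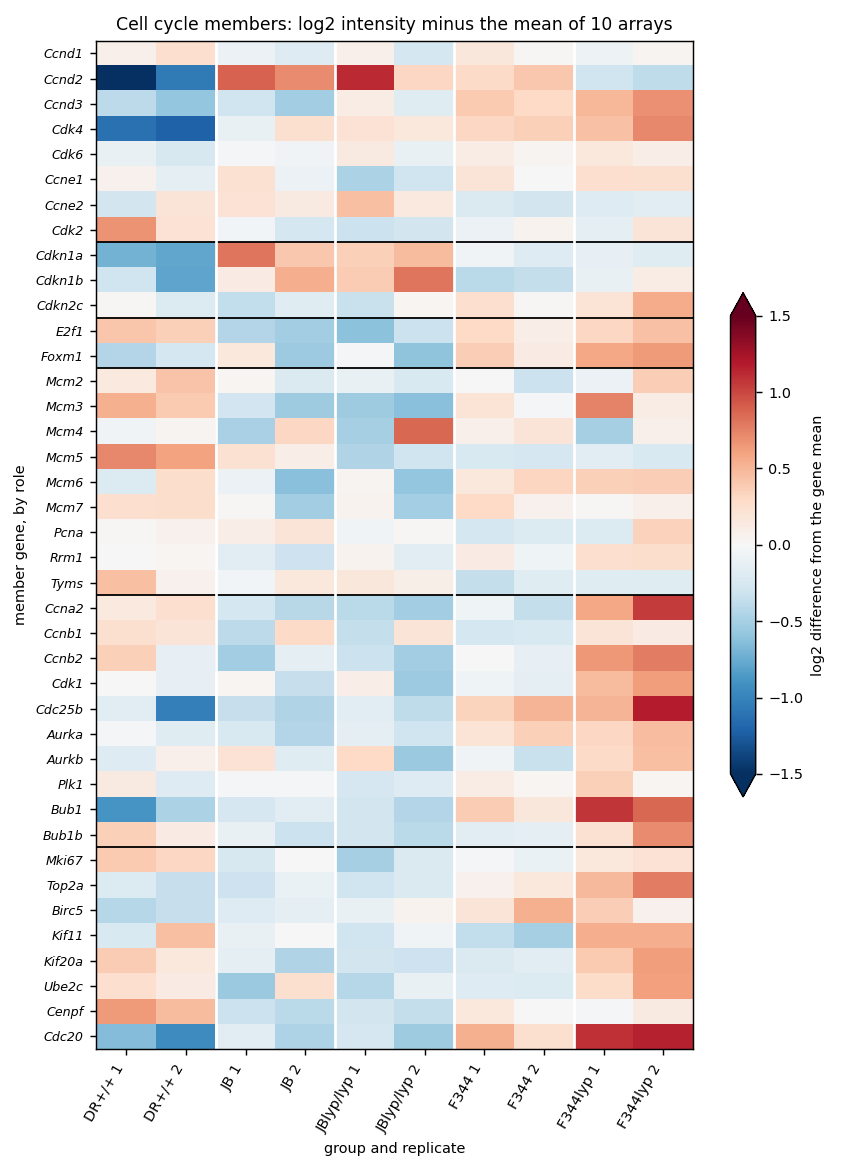
Log2 intensity of 40 members (rows, grouped by role and separated by black lines) on 10 arrays (columns, 2 per group), as the difference from the mean of each gene. Red is above and blue below that mean, and differences past 1.5 are drawn at the end of the scale. Cdc20 reached 7.24 in F344lyp and 5.14 in DR+/+, and Ccnd2 was 8.26 and 9.16 in DR+/+ and at least 9.84 in the other arrays.

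Most kinases and cyclins of G2 and mitosis were lower in JBlyp/lyp than in F344lyp islets. In JBlyp/lyp against F344lyp 7 of 10 fell and 0 rose, where 11.3% of all genes fell and 4.7% rose. The median was -0.79, and all 10 estimates lay below 0. Bub1, a checkpoint kinase that holds anaphase until chromosomes are attached, read 4.0 and 4.41 in DR+/+, 4.63 and 4.71 in JB, 4.61 and 4.44 in JBlyp/lyp, 5.26 and 5.05 in F344 and 5.95 and 5.74 in F344lyp. Both F344lyp arrays lay above the other 8, and all BB arrays lay below the F344 arrays. Bub1 fell by 1.32 (SE 0.17, adjusted p = 0.00112) in JBlyp/lyp against F344lyp and fell by 0.95 (SE 0.17, adjusted p = 0.00193) in DR+/+ against F344, and its difference in JB against F344 was -0.49 (adjusted p = 0.0991). Ccna2, cyclin A2, which acts in S phase and at the entry into mitosis, read 4.25 and 4.36 in DR+/+, 3.85 and 3.69 in JB, 3.71 and 3.59 in JBlyp/lyp, 4.04 and 3.75 in F344 and 4.69 and 5.16 in F344lyp. Its level was highest in F344lyp and next in DR+/+, and the JB arrays overlapped those of JBlyp/lyp and of F344. It fell by 1.28 (SE 0.18, adjusted p = 0.0019) in JBlyp/lyp against F344lyp, while JB against F344 gave -0.12 (adjusted p = 0.742).

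Ccnb2, the mitotic cyclin B2, read 6.76 and 6.27 in DR+/+, 5.87 and 6.25 in JB, 6.07 and 5.87 in JBlyp/lyp, 6.40 and 6.27 in F344 and 7.05 and 7.16 in F344lyp. Again the F344lyp arrays were above all others, and DR+/+ overlapped F344. Ccnb2 fell by 1.14 (SE 0.19, adjusted p = 0.00476) in JBlyp/lyp against F344lyp. Cdc25b, the phosphatase that activates Cdk1, read 6.23 and 5.38 in DR+/+, 6.06 and 5.95 in JB, 6.24 and 6.02 in JBlyp/lyp, 6.74 and 6.91 in F344 and 6.91 and 7.58 in F344lyp. Each of the 6 BB arrays was below each of the 4 F344 and F344lyp arrays. It fell by 1.11 (SE 0.28, adjusted p = 0.0288) in JBlyp/lyp against F344lyp and fell by 1.02 (SE 0.28, adjusted p = 0.0196) in DR+/+ against F344. Bub1b, the checkpoint partner of Bub1, read 4.72 and 4.48 in DR+/+, 4.25 and 4.04 in JB, 4.08 and 3.96 in JBlyp/lyp, 4.20 and 4.22 in F344 and 4.59 and 5.07 in F344lyp, and fell by 0.81 (SE 0.18, adjusted p = 0.0169) in JBlyp/lyp against F344lyp. The DR+/+ arrays overlapped those of F344lyp for this gene.

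Cdk1, the kinase that drives mitosis, fell by 0.77 (SE 0.21, adjusted p = 0.0388) in JBlyp/lyp against F344lyp, and its F344lyp arrays at 7.53 and 7.68 were above the other 8, which spanned 6.51 to 7.15. Aurka, the centrosome kinase Aurora A, fell by 0.61 (SE 0.15, adjusted p = 0.0235) there and fell by 0.61 (SE 0.15, adjusted p = 0.0261) in JB against F344, so that it was the one kinase of this role called both with and without lyp. Plk1, Aurkb and the brighter Ccnb1 probe set were not called in any of the 8 comparisons. For Ccnb1 the dimmer probe set gave another result, falling by 1.11 in JBlyp/lyp against F344lyp, where the brighter stood at -0.24.

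**Figure D2:**
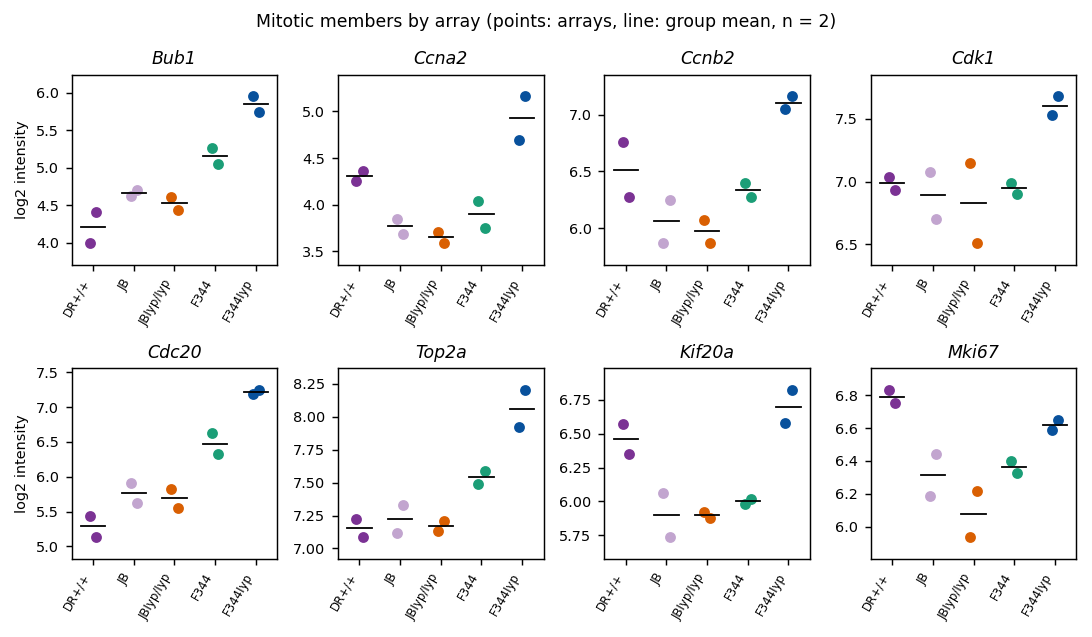
Log2 intensity of 8 mitotic members by group, with 1 point per array and a line at the mean of 2 arrays, each panel on its own scale. The F344lyp arrays lie above the other 8 for all but Mki67, which is highest in DR+/+ at 6.83 and 6.75. Such a lead of F344lyp was seen in 9 of all 18 measured mitotic members and in 13% of all genes.

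Genes of the spindle, of chromosome structure and of mitotic exit followed the same order of groups less uniformly. In JBlyp/lyp against F344lyp 5 of 8 fell and 0 rose, at a median of -0.72, where 11.3% of all genes fell and 4.7% rose. Cdc20, which activates the ligase that starts anaphase, read 5.44 and 5.14 in DR+/+, 5.91 and 5.62 in JB, 5.83 and 5.55 in JBlyp/lyp, 6.62 and 6.32 in F344 and 7.18 and 7.24 in F344lyp. The groups F344lyp, F344 and the BB arrays formed 3 steps without overlap. It fell by 1.52 (SE 0.18, adjusted p = 0.00069) in JBlyp/lyp against F344lyp, fell by 0.71 (SE 0.18, adjusted p = 0.0324) in JB against F344 and fell by 1.18 (SE 0.18, adjusted p = 0.000714) in DR+/+ against F344. The 4 dimmer Cdc20 probe sets did not all follow: 1 fell by 1.06 in JBlyp/lyp against F344lyp, and the others, at -0.28, 0.21 and 0.32, were not called. Read from the median of all its probe sets, Cdc20 turned its direction in JB against F344, to 0.13, and in DR+/+ against F344, to 0.16, and was not called in either.

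Top2a, the topoisomerase that untangles replicated chromosomes, read 7.22 and 7.09 in DR+/+, 7.12 and 7.33 in JB, 7.13 and 7.21 in JBlyp/lyp, 7.49 and 7.59 in F344 and 7.92 and 8.2 in F344lyp. No BB array reached the lowest F344 array, and F344lyp was highest. It fell by 0.89 (SE 0.15, adjusted p = 0.00466) in JBlyp/lyp against F344lyp, and its second probe set fell by 0.69. Kif20a, a kinesin of cytokinesis, read 6.57 and 6.35 in DR+/+, 6.06 and 5.74 in JB, 5.92 and 5.88 in JBlyp/lyp, 5.98 and 6.02 in F344 and 6.58 and 6.82 in F344lyp. It fell by 0.80 (SE 0.16, adjusted p = 0.0101) in JBlyp/lyp against F344lyp and rose by 0.56 (SE 0.16, adjusted p = 0.0255) in DR+/+ against JB. Kif11, the kinesin that separates spindle poles, fell by 0.72 (SE 0.21, adjusted p = 0.0454) in JBlyp/lyp against F344lyp.

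Mki67, the common marker of dividing cells, read 6.83 and 6.75 in DR+/+, 6.19 and 6.44 in JB, 5.94 and 6.22 in JBlyp/lyp, 6.40 and 6.33 in F344 and 6.59 and 6.65 in F344lyp. DR+/+ was highest, F344lyp next, and JB and F344 overlapped. It fell by 0.54 (SE 0.15, adjusted p = 0.0401) in JBlyp/lyp against F344lyp and rose by 0.47 (SE 0.15, adjusted p = 0.0392) in DR+/+ against JB. Cenpf, a kinetochore protein, read 7.71 and 7.55 in DR+/+, 6.75 and 6.67 in JB, 6.79 and 6.71 in JBlyp/lyp, 7.23 and 7.06 in F344 and 7.04 and 7.20 in F344lyp. Here DR+/+ stood above all other arrays and F344lyp did not stand above F344. Cenpf rose by 0.92 (SE 0.14, adjusted p = 0.000849) in DR+/+ against JB and rose by 0.48 (SE 0.14, adjusted p = 0.0233) in DR+/+ against F344. Birc5, survivin, a subunit of the Aurora B complex, read 3.68 and 3.76 in DR+/+, 3.91 and 3.97 in JB, 4.0 and 4.16 in JBlyp/lyp, 4.30 and 4.64 in F344 and 4.48 and 4.17 in F344lyp. All its BB arrays lay below the F344 and F344lyp arrays, and it fell by 0.74 (SE 0.16, adjusted p = 0.00596) in DR+/+ against F344. Ube2c, the ubiquitin-conjugating enzyme of anaphase, was not called in any comparison, at -0.72 (adjusted p = 0.0807) in JBlyp/lyp against F344lyp.

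Taking the 18 measured members of G2, mitosis and the spindle as 1 list, 12 (66.7%) fell and 0 rose in JBlyp/lyp against F344lyp. Over all genes 11.3% fell and 4.7% rose there. All 18 estimates lay below 0, at a median of -0.75. In JB against F344, 2 of the 18 (11.1%) fell, near the 8.22% of all genes, at a median of -0.11. The test of the difference between these comparisons is that of the lyp effects given further on, which called 0 of the 18. Markers of other cells moved with these genes. Of 12 acinar markers 11 fell and 0 rose in JBlyp/lyp against F344lyp, with a summed intensity of 40337 to 61997 in JBlyp/lyp and 133728 to 149811 in F344lyp. Of 16 macrophage and dendritic cell markers 12 fell and 0 rose, with 2104 to 3080 against 4824 to 5683. No marker reads 0 on this scale, and of the 16 macrophage and dendritic cell markers 10 had a mean under 6, Cd163 and Adgre1 lying between 2.99 and 4.67. In JB against F344 10 of the 12 acinar and 9 of the 16 macrophage and dendritic cell markers fell as well and 0 rose, where 2 of the 18 mitotic members fell. The part of these cells in the result was not tested. With the Gapdh difference as a covariate, which cannot be told apart from group here, 0 members were called in this comparison. Over all 40 members, of which 19 were called, the count was 5 without F344lyp replicate 2, 9 without F344lyp replicate 1, 10 without either F344 array and 11 without JBlyp/lyp replicate 2. Without the DR+/+ arrays it was 15 of the 40.

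**Figure D3:**
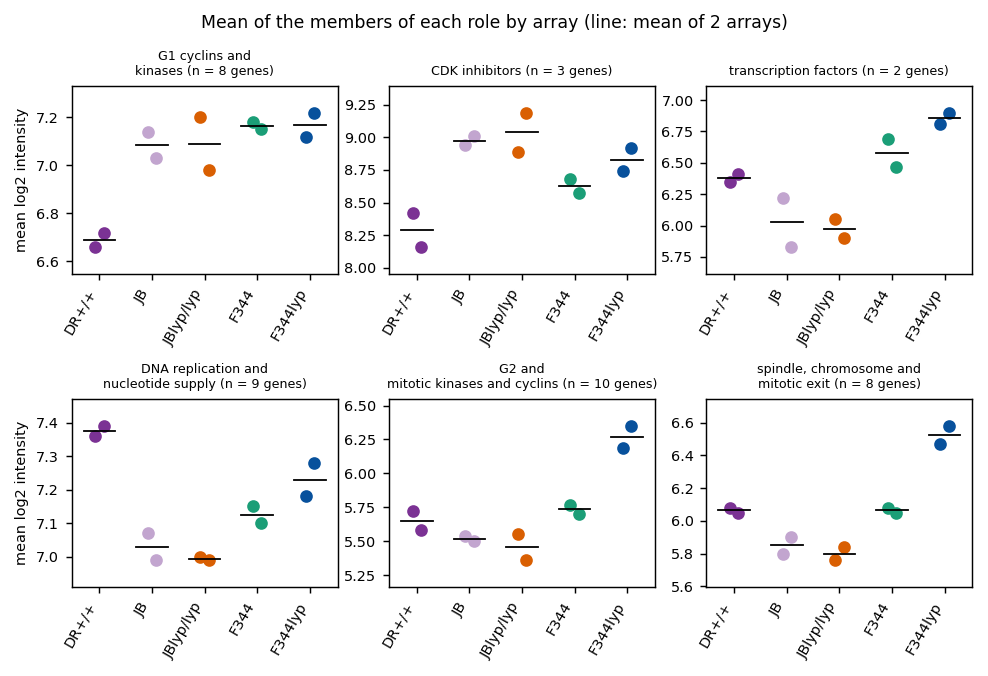
Mean log2 intensity over the members of each role on each array, with a line at the mean of 2 arrays and each panel on its own scale. F344lyp is highest for both mitotic roles (6.19 and 6.35, and 6.47 and 6.58), and DR+/+ is lowest for the G1 cyclins and kinases (6.66 and 6.72).

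Within the F344 background, islets with lyp had higher estimates than those without it for 33 of 40 members, at a median of 0.25 against 0.04 over all genes. Only Ccna2 passed the test, as it rose by 1.03 (SE 0.18, adjusted p = 0.0248). Its probe set was dim, with a mean of 4.11 over the 10 arrays, whose medians were 5.39 to 5.44. The next were Kif11 at 0.98 (SE 0.21, adjusted p = 0.052), Kif20a at 0.70 (SE 0.16, adjusted p = 0.0664), Cdc20 at 0.74 (SE 0.18, adjusted p = 0.0839), Bub1 at 0.69 (SE 0.17, adjusted p = 0.0879) and Ccnb2 at 0.77 (SE 0.19, adjusted p = 0.09). At an unadjusted p under 0.05, 11 of 40 members stood apart, as did 2442 of all 14217 genes. Of these 11 members, 10 are genes of G2, mitosis and the spindle, all higher with lyp, and 1 is Ccnd2, which was lower. For 24 members both F344lyp arrays lay above both F344 arrays, as did 34.3% of all genes, and for 15 members both F344lyp arrays lay above all other 8, as did 13% of all genes. These comparisons share the F344lyp arrays with the comparison against JBlyp/lyp, and the values are the same high readings. In a fit of the 4 F344 and F344lyp arrays alone 12 members were called, 11 higher and 1 lower, and 1 of the 12 was Ccna2. The share of all genes called in that fit is not given here, and 1.9% is that of the fit of all 10 arrays. The call of Ccna2 ended without F344 replicate 1, F344 replicate 2 or F344lyp replicate 2. Of the genes called over all 14217, 83.3% were higher with lyp, and 69.8% after quantile normalization. In F344 with lyp, 10 of the 12 T cell marker estimates were below 0 and 2 fell. All 12 acinar estimates and 12 of 16 macrophage and dendritic cell estimates were above 0, with 1 rise in each list, and their part in the result was not tested.

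Within JB no member was called for lyp (limma with Benjamini-Hochberg, smallest adjusted p = 0.433). JB and JBlyp/lyp were taken as 1 background from their names, and the origin of JB is not given. An effect of lyp and a difference of background therefore cannot be told apart here, nor in the difference between the lyp effects below. An unadjusted p under 0.05 was found for 3 of 40 members and for 857 of all 14217 genes. Mcm5 was at -0.54 with a 95% interval of -0.84 to -0.25, Ccne1 at -0.45 with -0.81 to -0.10 and Ccnd3 at 0.38 with 0.02 to 0.74. For the 9 mitotic genes whose F344lyp arrays lay above the other 8, the estimates for lyp in JB ran from -0.14 to 0.00 and the upper ends of their intervals from 0.24 (Bub1) to 0.43 (Ube2c). For lyp in F344 the lower ends ran from 0.10 (Ube2c) to 0.63 (Ccna2), so the intervals overlapped for some genes. These genes were picked by their high F344lyp arrays, which put their estimates in F344 above 0 by that choice. Setting the intervals side by side is therefore no test. Of all 18 mitotic members, 4 estimates lay above 0 for lyp in JB, at a median of -0.08. For lyp in F344, 16 of the 18 lay above 0, at a median of 0.59. In JB, Ccna2 lay at -0.12 (-0.52 to 0.28), Bub1 at -0.14 (-0.52 to 0.24), Cdc20 at -0.07 (-0.47 to 0.33) and Top2a at -0.05 (-0.39 to 0.28). The difference between the lyp effects in JB and in F344 was tested as an interaction. It is also the difference between JBlyp/lyp against F344lyp and JB against F344. This test called 0 members, with 12 of 40 at an unadjusted p under 0.05, as were 1234 of all 14217 genes. All 12 estimates were negative, the lyp difference being lower in JB than in F344. The largest were Ccna2 at -1.15 (SE 0.25, adjusted p = 0.167) and Kif11 at -1.09 (SE 0.29, adjusted p = 0.299). Over all genes 0.478% were called for this difference, 0.0492% above 0 and 0.429% below. A p that misses the threshold does not show that the effects are alike.

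**Figure D4:**
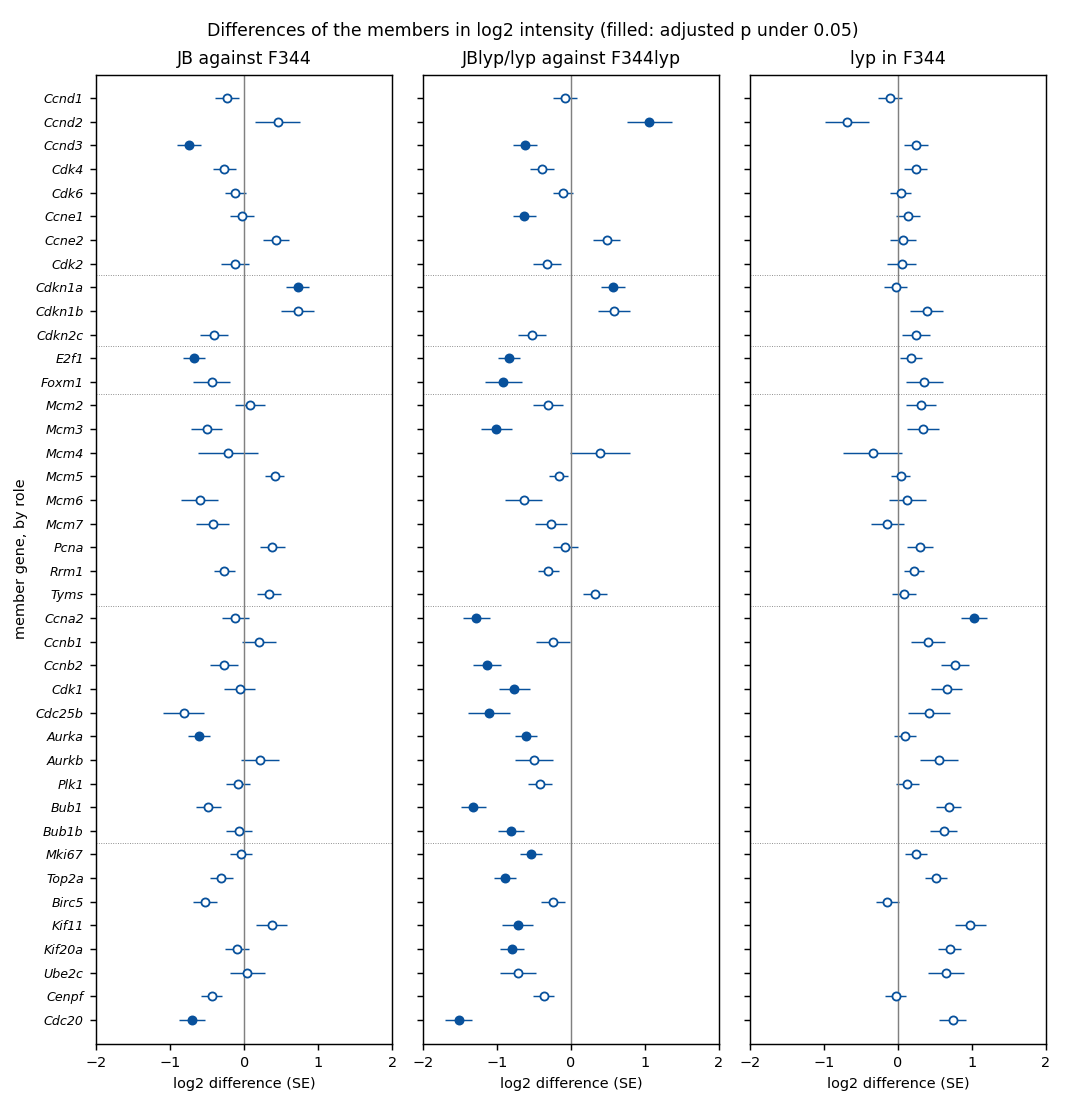
Difference in log2 intensity of 40 members (rows, by role) in 3 comparisons, with bars of 1 SE and filled points at an adjusted p under 0.05. In the middle panel 17 members are called below 0 and 2 above, in the left panel 4 and 1, and in the right panel Ccna2 alone is called. The right panel shares the F344 arrays with the left and the F344lyp arrays with the middle one.

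Among the cyclins and kinases of G1, Ccnd2 and Cdk4 set DR+/+ apart from all other groups. Ccnd2, cyclin D2, read 8.26 and 9.16 in DR+/+, 11.11 and 10.94 in JB, 11.34 and 10.54 in JBlyp/lyp, 10.51 and 10.63 in F344 and 9.93 and 9.84 in F344lyp. The DR+/+ arrays were below all the others, and the JB arrays lay above those of F344. Ccnd2 fell by 2.31 (SE 0.30, adjusted p = 0.000357) in DR+/+ against JB, fell by 1.86 (SE 0.30, adjusted p = 0.0011) in DR+/+ against F344 and rose by 1.06 (SE 0.30, adjusted p = 0.0448) in JBlyp/lyp against F344lyp, and the mean of the BB groups against F344 was 0.00 (adjusted p = 0.996). Cdk4, its kinase partner, read 8.76 and 8.67 in DR+/+, 9.77 and 10.12 in JB, 10.10 and 10.04 in JBlyp/lyp, 10.19 and 10.24 in F344 and 10.32 and 10.60 in F344lyp. DR+/+ was again below the rest, and JB and JBlyp/lyp lay slightly under F344. Cdk4 fell by 1.23 (SE 0.16, adjusted p = 0.000335) in DR+/+ against JB and fell by 1.5 (SE 0.16, adjusted p = 8.27e-05) in DR+/+ against F344, while JB against F344 gave -0.27 (adjusted p = 0.335). All 7 beta cell markers fell in DR+/+ against F344, at a median of -2.09, and 6 of 7 fell against JB. Whether Ccnd2 and Cdk4 fell within beta cells was not tested.

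Ccnd3, cyclin D3, read 6.75 and 6.56 in DR+/+, 6.84 and 6.62 in JB, 7.26 and 6.96 in JBlyp/lyp, 7.53 and 7.44 in F344 and 7.64 and 7.83 in F344lyp. Its 6 BB arrays all lay below the 4 F344 and F344lyp arrays, with no difference called between DR+/+ and JB, at -0.07 (adjusted p = 0.788). It fell by 0.75 (SE 0.16, adjusted p = 0.0156) in JB against F344, fell by 0.62 (SE 0.16, adjusted p = 0.0299) in JBlyp/lyp against F344lyp and fell by 0.83 (SE 0.16, adjusted p = 0.00304) in DR+/+ against F344. Ccne1, cyclin E1, read 6.18 and 5.98 in DR+/+, 6.34 and 6.03 in JB, 5.64 and 5.82 in JBlyp/lyp, 6.31 and 6.12 in F344 and 6.37 and 6.35 in F344lyp. The JBlyp/lyp arrays lay below the other 8, and the F344lyp arrays lay narrowly above the other 8. Ccne1 fell by 0.63 (SE 0.16, adjusted p = 0.0275) in JBlyp/lyp against F344lyp. Cdk2, the partner of the E cyclins, read 5.11 and 4.65 in DR+/+, 4.40 and 4.17 in JB, 4.11 and 4.16 in JBlyp/lyp, 4.35 and 4.49 in F344 and 4.29 and 4.63 in F344lyp, and rose by 0.60 (SE 0.19, adjusted p = 0.039) in DR+/+ against JB. The second E cyclin gene, Ccne2, rose by 0.36 (SE 0.11, adjusted p = 0.0355) in the BB groups against F344, a call lost with the group as a random block (adjusted p = 0.337). Ccnd1, read from the brightest of 3 probe sets, and Cdk6 were not called in any comparison.

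**Figure D5:**
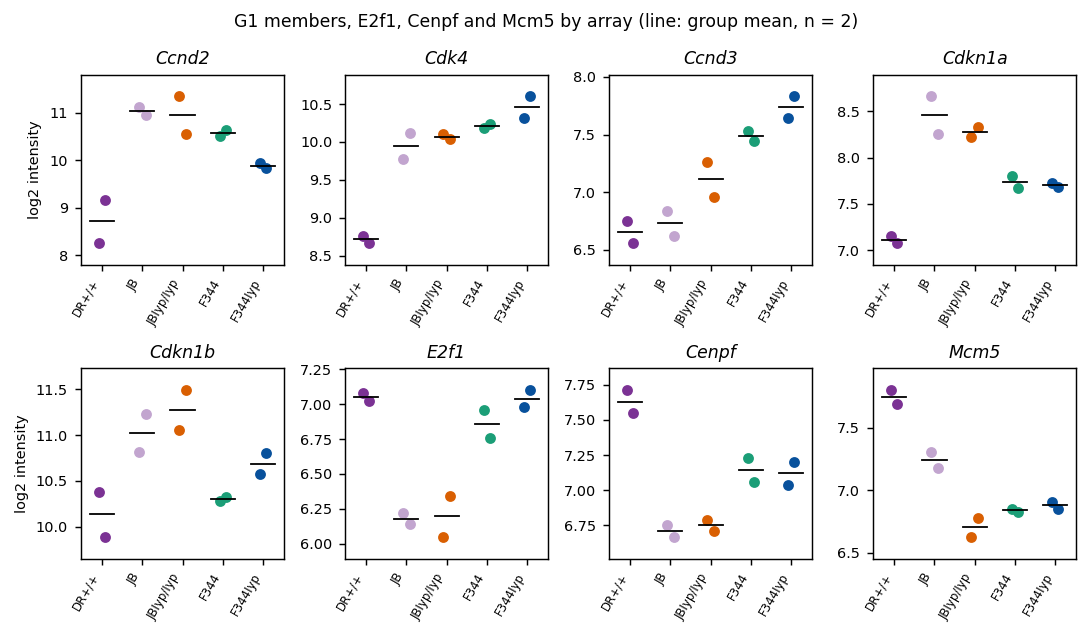
Log2 intensity of Ccnd2, Cdk4, Ccnd3, Cdkn1a, Cdkn1b, E2f1, Cenpf and Mcm5 by group, with 1 point per array and a line at the mean of 2 arrays, each panel on its own scale. DR+/+ is lowest for Ccnd2, Cdk4 and Cdkn1a and highest for Cenpf and Mcm5.

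Of the inhibitors, Cdkn1a, the p53 target p21, read 7.15 and 7.08 in DR+/+, 8.66 and 8.26 in JB, 8.22 and 8.33 in JBlyp/lyp, 7.80 and 7.67 in F344 and 7.73 and 7.68 in F344lyp. JB and JBlyp/lyp were above F344 and F344lyp, and DR+/+ was below them. On this probe set Cdkn1a rose by 0.72 (SE 0.16, adjusted p = 0.0168) in JB against F344 and rose by 0.57 (SE 0.16, adjusted p = 0.0385) in JBlyp/lyp against F344lyp, but fell by 0.62 (SE 0.16, adjusted p = 0.0123) in DR+/+ against F344 and fell by 1.35 (SE 0.16, adjusted p = 0.000181) in DR+/+ against JB. Its dimmer probe set had the opposite sign in these 4 comparisons, at -0.11, -0.23, 0.34 and 0.45, and was not called. With the Gapdh covariate the brighter one stood at -0.06 in JB against F344. Cdkn1b, p27, which restrains Cdk2 and is a brake on beta cell division, read 10.38 and 9.89 in DR+/+, 10.81 and 11.23 in JB, 11.06 and 11.49 in JBlyp/lyp, 10.28 and 10.32 in F344 and 10.57 and 10.80 in F344lyp. It fell by 0.89 (SE 0.22, adjusted p = 0.0131) in DR+/+ against JB. The JB arrays were above the F344 arrays, at a difference of 0.72 (adjusted p = 0.0637), and JBlyp/lyp arrays above F344lyp, at 0.58 (adjusted p = 0.112). Without the DR+/+ arrays both inhibitors were called higher in the BB groups, as was Ccnd2. Cdkn2c, the Cdk4 and Cdk6 inhibitor p18, read 7.73 and 7.50 in DR+/+, 7.34 and 7.53 in JB, 7.38 and 7.74 in JBlyp/lyp, 7.96 and 7.73 in F344 and 7.92 and 8.27 in F344lyp. It fell by 0.43 (SE 0.12, adjusted p = 0.0201) in the BB groups against F344, where its dimmer probe set rose by 0.58, so no direction is given for the gene. The call was lost with the group as a random block (adjusted p = 0.26).

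Both transcription factors fell in JBlyp/lyp against F344lyp. E2f1, which turns on replication genes, read 7.08 and 7.02 in DR+/+, 6.22 and 6.14 in JB, 6.05 and 6.34 in JBlyp/lyp, 6.96 and 6.76 in F344 and 6.98 and 7.10 in F344lyp. JB and JBlyp/lyp were below all other arrays, and DR+/+ lay with F344 and F344lyp. E2f1 fell by 0.84 (SE 0.15, adjusted p = 0.00553) in JBlyp/lyp against F344lyp and fell by 0.68 (SE 0.15, adjusted p = 0.0165) in JB against F344, and rose by 0.87 (SE 0.15, adjusted p = 0.00163) in DR+/+ against JB. Foxm1, which turns on mitotic genes, read 5.63 and 5.80 in DR+/+, 6.22 and 5.52 in JB, 6.05 and 5.46 in JBlyp/lyp, 6.43 and 6.19 in F344 and 6.65 and 6.70 in F344lyp. It fell by 0.92 (SE 0.25, adjusted p = 0.0377) in JBlyp/lyp against F344lyp, with F344lyp above the other 8 arrays. Its second probe set was not called, at -0.05.

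Of 9 genes of DNA replication and nucleotide supply 1 fell and 0 rose in JBlyp/lyp against F344lyp. That is 11.1%, where 11.3% of all genes fell, and 7 of the 9 estimates lay below 0, at a median of -0.27. Mcm3, a subunit of the replicative helicase, read 6.19 and 6.05 in DR+/+, 5.37 and 5.12 in JB, 5.12 and 5.03 in JBlyp/lyp, 5.86 and 5.64 in F344 and 6.40 and 5.77 in F344lyp, with JB and JBlyp/lyp below the rest. It fell by 1.01 (SE 0.21, adjusted p = 0.0113) in JBlyp/lyp against F344lyp and rose by 0.88 (SE 0.21, adjusted p = 0.00994) in DR+/+ against JB. Mcm5, another subunit, read 7.80 and 7.69 in DR+/+, 7.31 and 7.18 in JB, 6.63 and 6.78 in JBlyp/lyp, 6.85 and 6.83 in F344 and 6.91 and 6.85 in F344lyp. DR+/+ was highest and JB next, while JBlyp/lyp lay below F344. Mcm5 rose by 0.90 (SE 0.13, adjusted p = 0.000561) in DR+/+ against F344 and rose by 0.50 (SE 0.13, adjusted p = 0.0182) in DR+/+ against JB. Mcm6, whose promoter is shown above, read 6.39 and 6.86 in DR+/+, 6.51 and 5.97 in JB, 6.64 and 6.02 in JBlyp/lyp, 6.76 and 6.92 in F344 and 6.96 and 6.97 in F344lyp, and fell by 0.51 (SE 0.16, adjusted p = 0.0354) in the BB groups against F344, a call lost with the group as a random block (adjusted p = 0.342). Tyms, which makes thymidylate, read 5.45 and 5.06 in DR+/+, 4.96 and 5.16 in JB, 5.17 and 5.08 in JBlyp/lyp, 4.64 and 4.82 in F344 and 4.81 and 4.81 in F344lyp. All 6 of its BB arrays lay above the 4 F344 and F344lyp arrays, and it rose by 0.38 (SE 0.11, adjusted p = 0.0206) in the BB groups against F344, also lost with that block (adjusted p = 0.244). Mcm2, Mcm4, Mcm7, Pcna, the replication clamp, and Rrm1, the large subunit of ribonucleotide reductase, were not called in any comparison.

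In the BB groups against the F344 groups as a whole, Cdc20 fell by 1.26 (SE 0.12, adjusted p = 5.25e-05), Cdc25b fell by 1.05 (SE 0.18, adjusted p = 0.00183) and Bub1 fell by 1.03 (SE 0.11, adjusted p = 0.000122) (n = 6 BB and 4 F344 arrays). With the group as a random block Cdc25b was no longer called (adjusted p = 0.0888). For 8 members all BB arrays lay below all F344 and F344lyp arrays, as did 10.6% of all genes, and for 1, Tyms, they lay above, as did 4.9%. Those 8 were Cdc20, Cdc25b, Bub1, Ccnd3, Cdk4, Top2a, Aurka and Birc5. The error of this comparison leaves out the spread between the groups of a side. Without the DR+/+ arrays 21 members were called (share over all genes not given here), 16 lower and 5 higher, and 15 of them were among the 18. The 3 that lost the call were Cdk4, Mcm5 and Birc5, and the 6 that gained it were Ccnd2, Cdkn1a, Cdkn1b, Bub1b, Kif20a and Cenpf. In DR+/+ against F344, whose beta cell markers were lower, 4 of the 12 called members rose (Mcm5, Tyms, Kif20a and Cenpf). That is 10% of the 40 members, where 16.3% of all genes rose. Of 12 stellate and fibroblast markers 8 rose and 2 fell, and of 11 endothelial markers 8 rose and 1 fell. In DR+/+ against JB 10 of 11 endothelial markers rose. The part of these cells in the result was not tested.

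A wider list of 142 other cell cycle genes, 121 of them measured, was read in the same comparisons, and the difference between the lyp effects called 0 of them. In JBlyp/lyp against F344lyp 26 fell and 2 rose (23.1%, with 16% of all genes called), at a median of -0.28, and in JB against F344 8 fell and 5 rose (10.7%, with 13% of all genes called), at -0.09. Of the 28 called with lyp, 10 are genes of the spindle, kinetochore and cytokinesis, 9 of replication and 9 regulators. These lists hold 39, 43 and 39 measured genes, of which 23.1%, 20.9% and 20.5% fell, where 11.3% of all genes did. E2f2, an activating E2F factor, read 4.26 and 4.21 in DR+/+, 4.38 and 4.16 in JB, 4.52 and 4.19 in JBlyp/lyp, 6.03 and 6.02 in F344 and 5.97 and 5.69 in F344lyp. The 6 BB arrays lay more than 1 below the F344 and F344lyp arrays, and E2f2 fell by 1.47 (SE 0.16, adjusted p = 0.00048) in JBlyp/lyp against F344lyp. Cdkn3, a phosphatase that acts on Cdk1 and Cdk2, read 5.74 and 6.16 in DR+/+, 6.07 and 5.44 in JB, 6.12 and 5.13 in JBlyp/lyp, 6.29 and 6.14 in F344 and 6.92 and 6.90 in F344lyp, and fell by 1.29 (SE 0.31, adjusted p = 0.0229) there. The single-strand binding subunit Rpa1 fell by 1.18 (SE 0.15, adjusted p = 0.000932), the spindle pole protein Aspm by 1.07 (SE 0.18, adjusted p = 0.00413) and the histone chaperone Asf1b by 1.01 (SE 0.19, adjusted p = 0.00705). Aspm was high in F344lyp at 5.61 and 5.76 and also in DR+/+ at 5.26 and 5.79.

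In the BB groups against the F344 groups 33 of the 121 fell and 13 rose, 38% against 37.9% of all genes. E2f2 fell by 1.64 (SE 0.11, adjusted p = 6.65e-06), Rpa1 by 1.03 (SE 0.10, adjusted p = 5.33e-05) and Pold2, a subunit of DNA polymerase delta, by 1.0 (SE 0.14, adjusted p = 0.000568). Gadd45b, a stress-induced gene, rose by 1.14 (SE 0.13, adjusted p = 0.000148) and Tmpo, a nuclear lamina protein, by 0.95 (SE 0.17, adjusted p = 0.00213). Gadd45b rose by 1.22 in JB and by 1.42 in DR+/+ against F344, and was not called in JBlyp/lyp against F344lyp. Tmpo rose by 1.48 in DR+/+ against F344 and was called in neither JB nor JBlyp/lyp against its F344 group. Fits without DR+/+ or with the group as a random block are not given for these genes. Within F344, lyp called 3 of the 121, all higher: Rbl2, a retinoblastoma-like repressor, by 1.01 (SE 0.14, adjusted p = 0.00753), Cks2, a subunit of Cdk1 complexes, by 0.93 (SE 0.17, adjusted p = 0.0315), and the transcription factor gene Myc by 0.80 (SE 0.16, adjusted p = 0.0493). These 3 are named because they are all that was called. Cks2 and Myc also fell in JBlyp/lyp against F344lyp, a comparison that shares the F344lyp arrays. Within JB, lyp called 0 of the 121, with 8 at an unadjusted p under 0.05, as were 857 of all 14217 genes.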

How the data were processed

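RNA of rat islets was measured on 10 Affymetrix arrays, 2 in each of 5 groups. Per the submitters' processing notes, the authors deposited log2 intensities made with GCOS and RMA, 1 value per probe set and array. Versions and probe-level settings were not given in the sources used here. Of 31099 probe sets, 57 controls were set aside. The number of arrays limits the precision.

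Group means were estimated for each of 31042 probe sets (limma 3.58.1, R 4.3.3, eBayes, two-sided, 5 residual and 4.72 prior degrees of freedom). The 8 comparisons are contrasts of group means, with p adjusted by Benjamini-Hochberg and a call under 0.05. Neither a fold nor a brightness minimum was set. Any adjusted p in the text is limma's. Symbols came from the platform annotation, 20826 probe sets having 1 symbol, 436 several and 9780 none. The fit was tested on simulated data. Figures used matplotlib 3.10.9 in Python 3.11.15.

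Members and lists were chosen with earlier results of these data known. Values were given array by array for Mki67, Top2a, Ccnd2, Cdk4 and Cdkn1b and for up to 5 called members of each role, by the largest difference; for 5 other cell cycle genes in each of the BB and JBlyp/lyp comparisons, the largest called differences were named. Marker lists for duct, B cell and erythroid cells, T cells and the other types above were summed as linear intensities. In JBlyp/lyp against F344lyp 3 of 9 duct, 2 of 12 T cell and 1 of 7 B cell markers fell and 0 rose, and 0 of 6 erythroid markers fell and 1 rose. In that comparison 1 of 7 beta cell markers fell and 1 rose, and of 8 markers of other endocrine cells 1 fell and 2 rose. Of 11 endothelial markers 2 fell and 1 rose, and of 12 stellate and fibroblast markers 1 fell and 0 rose. Replicate numbers were tried as a block, beside other normalization, filters, single arrays left out and groups left out. Fits without DR+/+, other than for BB against F344, were added after seeing the data. Promoter sequences came from RefSeq (GRCr8).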

Additional observations from a re-analysis of the deposited data

How the results depend on the processing

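No member call turned its direction when a single array was left out, under quantile normalization, with the replicate block or without the DR+/+ arrays. It was turned by the Gapdh covariate for Ccnb2 in BB against F344 (0.49) and Cdkn1a in JB against F344 (-0.06), and by the median of all probe sets for Cdkn2c in BB against F344 (0.07) and for Cdc20 in JB against F344 (0.13) and in DR+/+ against F344 (0.16). None of these 5 passed the test. The cause was not tested. With the Gapdh covariate 0 members were called in BB, JB, JBlyp/lyp and DR+/+ against their F344 group and in lyp in F344, and 8 in DR+/+ against JB. As the Gapdh difference largely followed the groups, no conclusion about RNA quality is drawn from these counts or turned directions. Tested among probe sets with a mean of at least 6, where 28 members remain, BB against F344 called 11 and lyp in F344 0. The 12 dimmer members, left out there, include Ccna2 (mean 4.11), Birc5 (4.11), Bub1b (4.36), Bub1 (4.88) and Kif11 (5.09). Ccna2, the call for lyp in F344, was thus not tested in that fit. With the group as a random block BB against F344 called 3. The median of all probe sets gave 3 in JB against F344 and 2 in lyp in F344. Fits of the groups compared alone, with fewer arrays and not possible for BB against F344, which uses all groups, called 7 in JBlyp/lyp against F344lyp, 20 in DR+/+ against F344, 7 in DR+/+ against JB and 12 in lyp in F344. Without DR+/+, lyp in F344 called 2. The share of all genes called is not given here for these other fits. With 1 array left out the calls were 12 to 20 in BB against F344, 0 to 6 in JB against F344, 5 to 18 in JBlyp/lyp against F344lyp, 7 to 13 in DR+/+ against F344, 6 to 12 in DR+/+ against JB, 0 to 2 in lyp in F344 and 0 to 0 in lyp in JB and in the difference between the lyp effects. A group left with 1 array is assumed to vary like the others. JB against F344 called 0 without F344 replicate 1 or 2 and 1 without JB replicate 2, DR+/+ against F344 called 7 without F344 replicate 1 or 2, DR+/+ against JB 6 without DR+/+ replicate 1 and 7 without JB replicate 2. The deviations of same-numbered arrays correlated at 0.65 between JB and JBlyp/lyp and at -0.10 to 0.24 between the other groups. The labels do not say that a number marks a shared batch and the correlation is not shared by all groups, so the block stayed an alternative. The JB intervals for lyp are from the fit without it. With the replicate block the calls were 20, 5, 20, 12, 12, 0, 3 and 0 for BB against F344, JB against F344, JBlyp/lyp against F344lyp, DR+/+ against F344, DR+/+ against JB, lyp in JB, lyp in F344 and the difference.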

Other observations

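Members with several probe sets did not always agree, which matters for a set read from 1 probe set per gene. Probe sequences were not at hand, so sequence differences between strains under a probe set could not be checked. This holds for these genes and for steps between BB and F344 arrays such as that of E2f2. Both Ccne2 probe sets rose in the BB groups against F344, by 0.36 and 0.49, and both Top2a probe sets fell, by 0.62 and 0.43. Ccnd1 had 3 probe sets at -0.06, 0.41 and 0.11 in that comparison, of which the second rose. For Ccnb1 the brighter probe set was at 0.07 and the dimmer fell by 0.81, and for Cdkn2c the brighter fell by 0.43 and the dimmer rose by 0.58. Kif11 fell by 0.72 in JBlyp/lyp against F344lyp on 1 probe set and was at 0.13, not called, on the other.

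Of 12 T cell markers, 2 fell and 10 estimates lay below 0 for lyp in F344, and 0 were called and 9 lay below 0 for lyp in JB. Among them, chosen after their values were seen, Cd3d read 5.34 and 5.34 in F344lyp and 6.73 and 6.61 in F344, and 4.92 and 4.99 in JBlyp/lyp and 5.64 and 5.66 in JB. Cd8a read 3.31 and 3.42 in F344lyp and 4.42 and 4.58 in F344, and 3.39 and 3.27 in JBlyp/lyp and 3.94 and 3.47 in JB. Most of these markers were dim, 10 of the 12 having a mean under 6. Cd4 read 4.07 and 3.56 in F344lyp and 3.59 and 3.89 in F344, and 4.08 and 4.0 in JBlyp/lyp and 3.93 and 3.83 in JB.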
